A study of Mus musculus with 15 samples.

Results

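The conjugation enzymes of mouse liver were followed in 15 RNA sequencing libraries: the UDP-glucuronosyltransferases (UGT), the cytosolic and kappa glutathione transferases (GST), the sulfotransferases (SULT), and Ugdh and Ugp2, which make the sugar donor of the UGTs. Members were taken by gene symbol: those that begin with Ugt1, Ugt2, Ugt3 or Ugt8 and a subfamily or gene number, with Gst and a class letter (a, k, m, o, p, t or z), or with Sult, plus Ugdh and Ugp2, leaving out pseudogenes named -ps. The rule found 58 of the 17527 genes in the table: 19 UGT genes, 22 GST genes, 15 SULT genes, Ugdh and Ugp2. It used no measured value.

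The study set mice with a diet-induced nonalcoholic steatohepatitis, with and without biotransformed bear bile powder, against control mice. BBBPH livers (5 libraries) came from mice on a diet rich in fat and sucrose for 20 weeks that received 150 mg/kg of biotransformed bear bile powder by mouth each day once 12 weeks had passed, together with the diet. The labels give 14 mice in that group. Model livers (5 libraries) came from mice on the diet for the same time that were given saline by mouth in place of the powder. In both groups fat supplied 60% of the dietary energy, protein 20% and carbohydrate 20%, cholesterol was at 0.2%, and the drinking water held 42 g/L sugar, 55% of it sucrose and 45% fructose. Control livers (5 libraries) came from mice whose diet and dosing are not stated, and strain, sex and age are stated for none of the groups. It is also not stated that each library came from its own mouse, so p-values measure the spread between these libraries.

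Conjugation makes fat-soluble compounds easier to dissolve and export. UGTs of the endoplasmic reticulum attach glucuronic acid from UDP-glucuronic acid to bilirubin, bile acids, steroids and drugs, GSTs attach glutathione to reactive electrophiles, and SULTs attach sulfate from the donor PAPS to phenols, steroids and bile acids. Hepatocytes carry most of this capacity, and several of the genes are known targets of the xenobiotic receptors AhR, CAR and PXR and of the oxidative stress factor NRF2, while others differ between male and female mouse liver.

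Values are the authors' FPKM, read fragments scaled by gene length and by library depth, so levels of different genes can be compared. Depth read from the values was 35395712 to 39624160 fragments per library, and 1 fragment in a gene of 1 kilobase was worth 0.0252 to 0.0283 FPKM. Fold changes are differences of group means on the scale of log2(FPKM + 1), given with their standard error (5 libraries in each group), and understate changes of genes near or below 1 FPKM. They were tested with limma, with Benjamini-Hochberg adjustment over all 9575 genes that averaged at least 1 FPKM, and the call threshold was an adjusted p of 0.05. The 3 comparisons share libraries in pairs, so their values are set side by side and not correlated.

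Of the 15 libraries 3 stood apart, as seen in genes outside the families: model 1_4, BBBPH 2_2 and control 2_1. In model 1_4 Saa2, an acute phase gene, stood at 14965 FPKM, where the other model libraries had 61.6 to 194 FPKM. The same library had the lowest summed hepatocyte markers (30853 FPKM) and was the lowest model library for 29 of the 43 tested members. Control 3_4 was the lowest control library for 22 of the 43, and BBBPH 3_1 the lowest BBBPH library for 16. BBBPH 2_2 held 978 FPKM of the pancreatic gene Ctrb1, and control 2_1 held 70.01 FPKM of the muscle gene Tnnt3. The 6 hepatocyte markers (Alb, Apoa1, Ttr, Serpina1c, Tat, Asgr1) summed to 53881 to 63851 FPKM in BBBPH livers, 30853 to 54171 FPKM in model livers and 59049 to 67176 FPKM in control livers, and 3 of them fell in model against control. The 6 stellate cell markers summed to 136 to 155 FPKM in BBBPH livers, 149 to 186 FPKM in model livers and 116 to 145 FPKM in control livers, with 5 of 6 called higher in model against control. Summed levels of the 6 macrophage markers were 109 to 213 FPKM in BBBPH livers, 92.7 to 146 FPKM in model livers and 88.7 to 119 FPKM in control livers. The 6 cholangiocyte markers summed to 21.9 to 33.7 FPKM in BBBPH livers, 24.9 to 255 FPKM in model livers and 23.5 to 26.6 FPKM in control livers, and the 4 neutrophil markers to 5.96 to 135 FPKM, 9.73 to 74.2 FPKM and 1.75 to 35.3 FPKM in the same groups. Sums of the 6 sinusoidal endothelium markers were 135 to 140.2 FPKM in BBBPH livers, 99.4 to 145 FPKM in model livers and 110.3 to 127 FPKM in control livers. Of these 3 were called higher and 1 lower in model against control, 1 higher and 1 lower in BBBPH against model, and 1 higher in BBBPH against control. The 4 kidney, gut or other tissue markers summed to 199 to 275 FPKM in BBBPH livers, 122 to 214 FPKM in model livers and 90.4 to 141 FPKM in control livers, nearly all of it Fabp2. That gene was called higher in model against control (log2 fold change 0.60 ± 0.15, adjusted p = 0.00634) and in BBBPH against control (log2 fold change 0.98 ± 0.15, adjusted p = 0.000653). In bulk livers fewer cells of a type and less RNA per cell cannot be told apart, and the part of these differences in the results was not tested.

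Of the 58 members, 43 averaged at least 1 FPKM and were tested. In model against control 8 rose and 8 fell, 37.2% of those tested, beside 38.6% of all 9575 genes (29.9% higher and 8.64% lower). In BBBPH against model 6 rose and 9 fell, 34.9%, beside 26.5% of all genes (14.2% higher and 12.2% lower). In BBBPH against control 3 rose and 5 fell, 18.6%, beside 28.1% of all genes (24.4% higher and 3.7% lower). Without the 3 libraries that stood apart 9 rose and 7 fell, 4 rose and 11 fell, and 1 rose and 6 fell in the same order. The members' shares were then 37.2%, 34.9% and 16.3%, beside 33.6%, 19.2% and 22.2% of all genes. The median log2 fold change of the members was 0.05, -0.02 and -0.0045 in these comparisons, where that of all tested genes was 0.12, 0.02 and 0.13. The split of all genes into higher and lower rested on the scaling: with median-ratio scaling 1483 genes rose and 1809 fell in model against control, where 2865 and 827 did so without it, and in BBBPH against control 667 rose and 944 fell, where 2337 and 354 did so. With that scaling 6 members rose and 11 fell in model against control, and 3 rose and 8 fell in BBBPH against control. The order of the shares in BBBPH against control turned with the processing. The members' share was below that of all genes in the reported fit (18.6% beside 28.1%). It was 25.6% beside 16.8% with median-ratio scaling and 23.3% beside 16.1% with quantile scaling. With the replicate number as a block it was 6.98% beside 1.93%. With no filter on low values 18.6% of the same 43 members stood beside 15.4% of 17051 genes. There the filter was lifted for all genes but not for the members, so that order cannot be read. In model against control the order turned with median-ratio scaling (39.5% beside 34.4%), with quantile scaling and with the block too, among other settings.

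**Figure D1:**
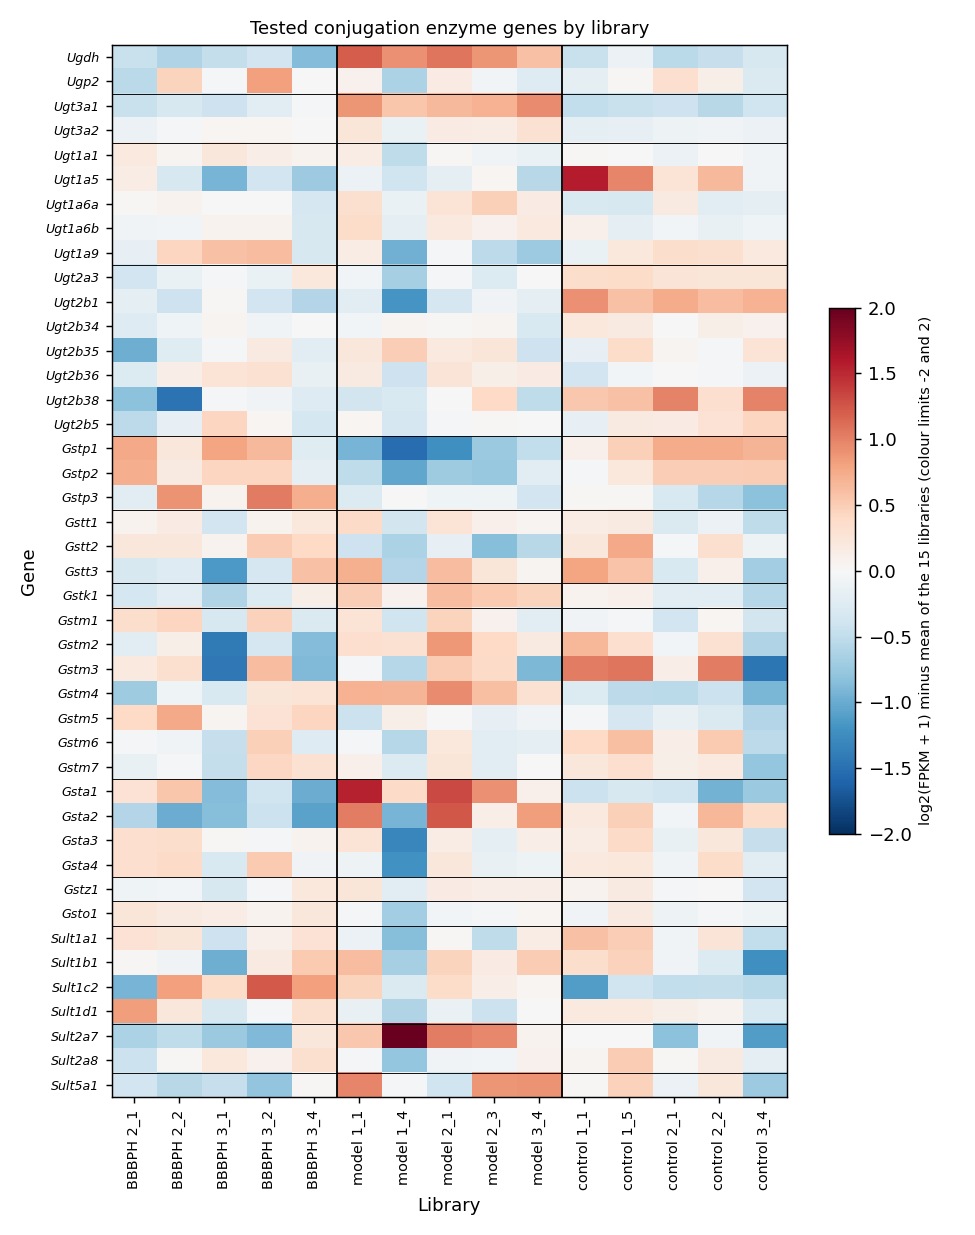
Log2(FPKM + 1) of the 43 tested members (rows, by family) in the 15 libraries (columns, BBBPH, model and control), centred on the mean of each gene over all libraries. Ugdh and Ugt3a1 are high in all 5 model libraries and Gstp1, Gstp2 and Gstt2 low in all 5, and model 1_4 is the lowest of its group in 29 rows.

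Ugdh, UDP-glucose dehydrogenase, oxidises UDP-glucose to UDP-glucuronic acid and so makes the donor for every glucuronidation. It had 37.6, 33.6, 36.6, 39.2 and 27.9 FPKM in BBBPH livers, 120.0, 97.6, 109.7, 95.6 and 77.8 FPKM in model livers and 37.4, 47.6, 35.0, 37.1 and 40.8 FPKM in control livers. The lowest model library lay far above the highest library of the other groups, and BBBPH and control libraries overlapped. The mean was 2.53 times the control mean in model livers, where Ugdh rose (log2 fold change 1.31 ± 0.12, adjusted p = 3.67e-06). It fell in BBBPH against model (log2 fold change -1.49 ± 0.12, adjusted p = 2.18e-06), and BBBPH against control gave -0.17 ± 0.12 (adjusted p = 0.281). Ugdh lies on chromosome 5, 65413221 to 65435949, minus strand (GRCm38, GENCODE M21), and 0.865% of its 100-base exon windows also occur in another gene.

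Ugp2, UDP-glucose pyrophosphorylase, makes the UDP-glucose that Ugdh and glycogen synthesis both use. It had 105, 209, 151, 271 and 153 FPKM in BBBPH livers, 162, 98.0, 172, 147 and 128 FPKM in model livers and 135, 156, 193, 167 and 125 FPKM in control livers. Libraries of all groups overlapped, with BBBPH the most spread, and Ugp2 was called in none of the comparisons (log2 fold changes -0.14 ± 0.22 in model against control and 0.28 ± 0.22 in BBBPH against model).

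Promoters of Ugdh, Ugt3a1 and Gstp1 are shown because Ugt3a1 and Ugdh had the smallest adjusted p among the members that rose in model against control, and Gstp1 among those that fell. Each is the 250 bases before the start that RefSeq gives on GRCm38.p6, 5′ to 3′ on the strand of the gene: chr5:65435843-65436092 on the minus strand for Ugdh, chr15:9279579-9279828 on the plus strand for Ugt3a1 and chr19:4037913-4038162 on the minus strand for Gstp1. In all 3 the RefSeq start lies inside the gene as GENCODE draws it. The Gstp1 match at -13 and the Ugdh matches at -94 are therefore within the GENCODE gene. For Ugt3a1 the whole window lies inside the GENCODE gene, which starts at 9276888, and no base before that start was searched. Capitals mark matches, on either strand, to the core TGACNNNGC of the antioxidant response element, the sequence that NRF2 binds, or to the core GCGTG of the xenobiotic response element, the sequence that AhR binds.
Ugdh promoter: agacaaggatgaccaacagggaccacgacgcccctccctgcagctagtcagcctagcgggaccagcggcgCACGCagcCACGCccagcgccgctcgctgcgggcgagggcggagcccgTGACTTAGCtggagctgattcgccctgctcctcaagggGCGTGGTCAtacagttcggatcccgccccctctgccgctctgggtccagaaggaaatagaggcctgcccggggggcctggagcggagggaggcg
Ugt3a1 promoter: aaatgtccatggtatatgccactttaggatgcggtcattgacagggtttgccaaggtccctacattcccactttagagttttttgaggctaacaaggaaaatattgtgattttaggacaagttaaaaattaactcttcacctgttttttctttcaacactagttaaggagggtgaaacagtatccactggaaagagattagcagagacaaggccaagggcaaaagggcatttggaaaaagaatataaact
Gstp1 promoter: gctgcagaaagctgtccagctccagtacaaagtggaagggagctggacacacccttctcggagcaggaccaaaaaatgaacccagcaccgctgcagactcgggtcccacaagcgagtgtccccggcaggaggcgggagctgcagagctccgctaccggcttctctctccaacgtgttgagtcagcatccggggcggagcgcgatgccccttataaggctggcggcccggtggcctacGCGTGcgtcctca
Ugdh held 2 matches to the antioxidant core, starting at -132 and -94 from the gene start, and 3 to the xenobiotic core, starting at -180, -172 and -94, of which the last overlaps an antioxidant match. Gstp1 held 1 match to the xenobiotic core at -13, and the Ugt3a1 window, inside the GENCODE gene, held none. Of the 27025 promoters of this length in the RefSeq table, 10.1% held the antioxidant core and 28.2% the xenobiotic core, and among the 50 members with an entry 3 and 10 did. The antioxidant core was also found in Gsta3 and Gstm5. The site TTCNNNGAA of STAT5, which carries the male pattern of growth hormone in mouse liver, stood in 7.18% of promoters and in 3 members (Gsta1, Sult3a1 and Ugt1a6a). The endoplasmic reticulum stress element, CCAAT and CCACG at the ends of 19 bases (0.122% of promoters), and the unfolded protein response core TGACGTG (1.61%) were in the window of 0 of the 50 members. A match is a run of letters only and says nothing of binding in these livers.

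The UGT3 subfamily has 2 members in mouse, and its human counterpart UGT3A1 uses UDP-N-acetylglucosamine rather than UDP-glucuronic acid. Ugt3a1 had 23.3, 25.5, 24.0, 27.6 and 31.3 FPKM in BBBPH livers, 59.9, 47.9, 51.2, 52.6 and 63.0 FPKM in model livers and 22.6, 23.5, 23.8, 21.7 and 24.1 FPKM in control livers. All 5 model libraries lay above the other 10, which overlapped. Ugt3a1 rose in model against control (log2 fold change 1.21 ± 0.09, adjusted p = 8.81e-07), fell in BBBPH against model (log2 fold change -1.03 ± 0.09, adjusted p = 2.93e-06) and gave 0.17 ± 0.09 in BBBPH against control (adjusted p = 0.144). Its SD was 3.21 FPKM in BBBPH livers, 6.29 FPKM in model livers and 1.001 FPKM in control livers. The gene lies on chromosome 15, 9276888 to 9315032, plus strand, and 0% of its exon windows occur elsewhere.

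Ugt3a2, its neighbour on chromosome 15, was the more abundant of the pair, with 157, 168, 175, 175 and 169 FPKM in BBBPH livers, 201, 155, 191, 189 and 211 FPKM in model livers and 149, 151, 158, 162 and 158 FPKM in control livers. Model libraries ran highest apart from model 1_4, which lay among the controls. Ugt3a2 rose in model against control (log2 fold change 0.28 ± 0.07, adjusted p = 0.00941), which was lost with median-ratio scaling (adjusted p = 0.241), at a log2 fold change of 0.12. BBBPH against model gave -0.16 ± 0.07 (adjusted p = 0.130), which passed the threshold with quantile scaling, with library weights, without the 3 libraries that stand apart or without model 1_4 (adjusted p = 0.0102 to 0.0421).

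The UGT1 genes are made from 1 locus on chromosome 1 (GRCm38), where a first exon of its own is joined in each to later exons that all share, so 50.4% to 70.9% of their exon windows occur in another Ugt1 gene and the authors' counting could split such fragments either way. Values of single Ugt1 genes are therefore uncertain. Ugt1a1, the bilirubin enzyme, was the most abundant, with 108 ± 5.69 FPKM in BBBPH livers, 92.0 ± 15.1 FPKM in model livers and 96.4 ± 4.07 FPKM in control livers (SD, n = 5 each), and was called in none of the comparisons. Its BBBPH libraries all lay above its control libraries, by a narrow margin, at 102 to 115 FPKM in BBBPH livers and 90.7 to 100.005 FPKM in control livers. In BBBPH against model (0.24 ± 0.10, adjusted p = 0.0749) it passed the threshold with quantile scaling or without model 1_1 (adjusted p = 0.0286 to 0.0340).

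Ugt1a5 had 5.62, 3.76, 2.12, 3.58 and 2.61 FPKM in BBBPH livers, 4.498, 3.51, 4.22, 5.11 and 3.06 FPKM in model livers and 16.7, 10.7, 6.23, 8.36 and 4.66 FPKM in control livers. Control libraries were high and spread, and only control 3_4 fell among those of the diet groups. It fell in model against control (log2 fold change -0.93 ± 0.26, adjusted p = 0.0108) and was lower in BBBPH than in control livers too (log2 fold change -1.12 ± 0.26, adjusted p = 0.00609), while BBBPH against model gave -0.20 ± 0.26 (adjusted p = 0.616). Ugt1a9, which in human liver conjugates phenols and several drugs, had 3.50, 5.81, 6.56, 6.74 and 3.02 FPKM in BBBPH livers, 4.57, 1.59, 3.88, 2.51 and 2.04 FPKM in model livers and 3.60, 4.85, 5.40, 5.32 and 4.74 FPKM in control livers. Groups overlapped in every comparison. It fell in model against control (log2 fold change -0.61 ± 0.22, adjusted p = 0.0370), which no longer passed with no filter on low values, without the 3 libraries that stand apart or without control 1_5, control 2_1, control 2_2, control 3_4, model 1_4, model 2_3 or model 3_4 (adjusted p = 0.0594 to 0.165). It rose in BBBPH against model (log2 fold change 0.65 ± 0.22, adjusted p = 0.0372), which no longer passed with no filter on low values, in a fit of the compared groups only, without the 3 libraries that stand apart or without BBBPH 2_2, BBBPH 3_1, BBBPH 3_2, model 1_4, model 2_3 or model 3_4 (adjusted p = 0.0713 to 0.186). 

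Ugt1a6a, a phenol enzyme known as a target of AhR, averaged 12.5 FPKM in BBBPH livers, 15.2 FPKM in model livers and 11.4 FPKM in control livers. It rose in model against control (log2 fold change 0.39 ± 0.12, adjusted p = 0.0172), but not with median-ratio scaling, with quantile scaling or without model 2_3 (adjusted p = 0.0502 to 0.105). In BBBPH against model (-0.26, adjusted p = 0.117) it passed the threshold with library weights, without the 3 libraries that stand apart or without model 1_4 (adjusted p = 0.0146 to 0.0411). Ugt1a6b averaged 22.7 FPKM in BBBPH livers, 26.4 FPKM in model livers and 22.5 FPKM in control livers and was not called. It passed in model against control with library weights, without the 3 libraries that stand apart or without model 1_4 (adjusted p = 0.0187 to 0.0381) and in BBBPH against model without model 1_4 (adjusted p = 0.0322). The 4 remaining Ugt1 genes were not tested, at means under 1 FPKM.

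The UGT2 genes, a cluster on chromosome 5 whose enzymes take steroids, bile acids and drugs, summed to 1239 ± 194 FPKM in BBBPH livers, 1249 ± 135 FPKM in model livers and 1489.8 ± 65.6 FPKM in control livers (SD, n = 5). Of 7 tested, 3 fell in model against control and 3 in BBBPH against control, where 8.64% and 3.7% of all genes fell. In BBBPH against model 0 of the 7 were called by limma, beside 26.5% of all genes. There 0 had an unadjusted p under 0.05 and voom on fragment counts called 0. Ugt2b1 had 143, 120.5, 165, 123 and 107 FPKM in BBBPH livers, 137, 70.2, 127, 153 and 140.3 FPKM in model livers and 305, 242, 271, 247 and 261 FPKM in control livers. Every control library lay above every library of both diet groups. Ugt2b1 fell in model against control (log2 fold change -1.12 ± 0.17, adjusted p = 0.000218) and was lower in BBBPH livers than in control livers too (log2 fold change -1.02 ± 0.17, adjusted p = 0.00115), while BBBPH against model gave 0.10 ± 0.17 (adjusted p = 0.713).

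Ugt2a3 had 113, 135, 146, 135 and 171 FPKM in BBBPH livers, 142, 93.5, 146, 122 and 149 FPKM in model livers and 188, 192, 178, 175 and 176 FPKM in control livers. Control libraries again lay above all others. It fell in model against control (log2 fold change -0.49 ± 0.12, adjusted p = 0.00547) and in BBBPH against control (log2 fold change -0.39 ± 0.12, adjusted p = 0.0288), the second call ending without control 1_1, control 1_5, BBBPH 2_1, BBBPH 2_2 or BBBPH 3_2 (adjusted p = 0.0545 to 0.0636). Ugt2b38 had 2.77, 1.40, 5.57, 5.39 and 4.597 FPKM in BBBPH livers, 4.20, 4.38, 5.65, 7.85 and 3.69 FPKM in model livers and 8.69, 8.98, 12.3, 7.43 and 12.3 FPKM in control livers. Its control libraries were high, all of them above the BBBPH libraries, while model 2_3 fell among them. Ugt2b38 fell in model against control (log2 fold change -0.84 ± 0.25, adjusted p = 0.0159), except with library weights (adjusted p = 0.0565), and in BBBPH against control (log2 fold change -1.22 ± 0.25, adjusted p = 0.00344).

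Ugt2b38 shares 24.2% of its exon windows with Ugt2b5, so fragments of the abundant Ugt2b5 could be counted in it. Ugt2b5 had 274, 350.0, 529, 405 and 307 FPKM in BBBPH livers, 404, 313, 386, 402 and 394 FPKM in model livers and 351, 447, 444, 479.7 and 532 FPKM in control livers, with every group overlapping, and the level of Ugt2b38 came to 1.06% ± 0.419 of that of Ugt2b5 in BBBPH livers, 1.36% ± 0.402 in model livers and 2.22% ± 0.464 in control livers (SD, n = 5). Ugt2b36 had 284, 379, 416, 428 and 309 FPKM in BBBPH livers, 389, 259, 413, 375 and 386 FPKM in model livers and 264, 333, 342, 335 and 317 FPKM in control livers. Model 1_4 was lowest of the model group for Ugt2b36 and Ugt2b5 alike, and neither gene was called (Ugt2b36 0.18 ± 0.14, adjusted p = 0.306, and Ugt2b5 -0.24 ± 0.15, adjusted p = 0.228, in model against control). In BBBPH against control Ugt2b5 (-0.30 ± 0.15, adjusted p = 0.157) passed the threshold with median-ratio scaling or without BBBPH 3_1 (adjusted p = 0.0282 to 0.0373), and in model against control with median-ratio scaling (adjusted p = 0.0454). Ugt2b34 and Ugt2b35 averaged 185 FPKM in BBBPH livers, 188 FPKM in model livers and 210.4 FPKM in control livers, and 41.8 FPKM in BBBPH livers, 54.7 FPKM in model livers and 52.4 FPKM in control livers. Ugt2b34 was not called, but passed in model against control with median-ratio scaling (adjusted p = 0.00401) and in BBBPH against control with median-ratio scaling or with quantile scaling (adjusted p = 0.00474 to 0.0415), each time lower than control. Ugt2b35 passed in BBBPH against model without model 3_4 (adjusted p = 0.0431).

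**Figure D2:**
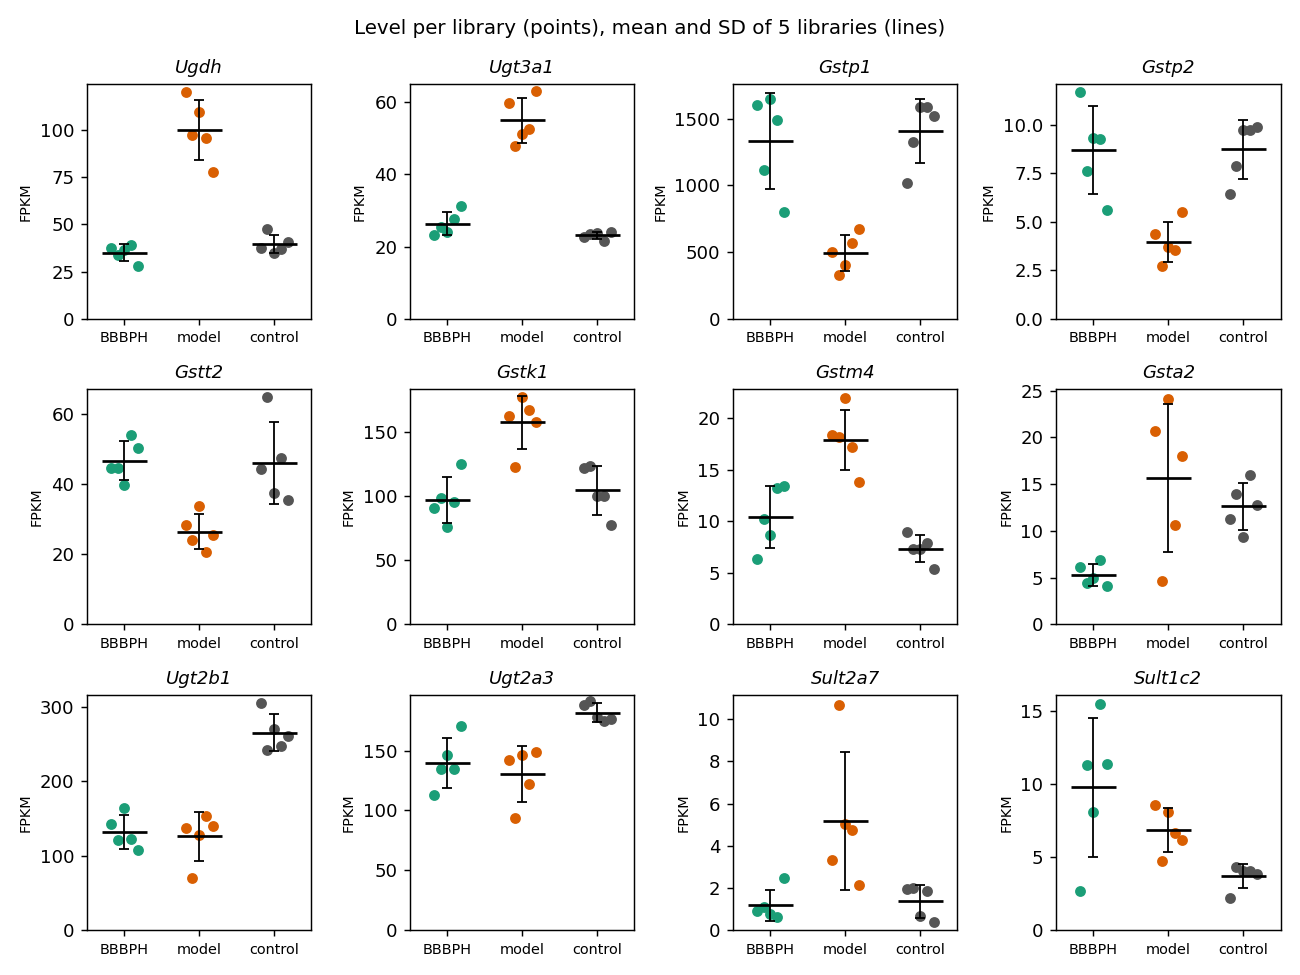
FPKM of 12 members in each library (points), with the group mean (bar) and SD (whiskers, n = 5), for BBBPH, model and control livers, each panel with its own linear axis. Ugdh and Ugt3a1 stand high in model livers only, Gstp1, Gstp2 and Gstt2 low in model livers only, and Ugt2b1 and Ugt2a3 are highest in control livers.

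The pi class, cytosolic enzymes of which Gstp1 is known to be higher in male than in female mouse liver, has 3 members on chromosome 19. Gstp1 had 1606, 1113, 1646, 1494 and 805 FPKM in BBBPH livers, 498, 329.5, 405, 566 and 675 FPKM in model livers and 1019.7, 1329, 1589, 1585 and 1519.6 FPKM in control livers. Each model library lay below each of the other 10, and BBBPH 3_4 was the lowest of those. Gstp1 fell in model against control (log2 fold change -1.53 ± 0.22, adjusted p = 9.90e-05), the mean being 0.351 of the control mean. It rose in BBBPH against model (log2 fold change 1.42 ± 0.22, adjusted p = 0.000251), and BBBPH against control gave -0.11 ± 0.22 (adjusted p = 0.728). The gene lies on chromosome 19, 4035407 to 4037985, minus strand.

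Gstp2 had 11.7, 7.62, 9.32, 9.29 and 5.64 FPKM in BBBPH livers, 4.38, 2.70, 3.69, 3.53 and 5.50 FPKM in model livers and 6.44, 7.86, 9.74, 9.75 and 9.88 FPKM in control livers. Its model libraries were likewise all below the rest. Gstp2 fell in model against control (log2 fold change -0.98 ± 0.17, adjusted p = 0.000522) and rose in BBBPH against model (log2 fold change 0.96 ± 0.17, adjusted p = 0.000873). The 2 genes cannot be taken as separate evidence: 25.1% of the exon windows of Gstp1 and 46.9% of those of Gstp2 occur in another gene, and Gstp2 stood at 0.660% ± 0.0652 of the level of Gstp1 in BBBPH livers, 0.809% ± 0.111 in model livers and 0.620% ± 0.0220 in control livers (SD, n = 5). Gstp3, whose windows occur nowhere else, had 12.4, 28.2, 15.4, 31.2 and 24.9 FPKM in BBBPH livers, 12.0, 14.5, 13.8, 13.9 and 11.1 FPKM in model livers and 14.9, 14.9, 11.7, 9.57 and 7.87 FPKM in control livers. All BBBPH libraries but 2_1 lay above every model and control library, 3_1 by little. Gstp3 was higher in BBBPH than in control livers (log2 fold change 0.83 ± 0.22, adjusted p = 0.0136), except without the 3 libraries that stand apart (adjusted p = 0.0556). It rose in BBBPH against model (log2 fold change 0.66 ± 0.22, adjusted p = 0.0382), which no longer passed with no filter on low values, without the 3 libraries that stand apart or without BBBPH 2_2, BBBPH 3_2, BBBPH 3_4, model 1_1, model 2_1, model 2_3 or model 3_4 (adjusted p = 0.0559 to 0.121). Model against control gave 0.17 ± 0.22 (adjusted p = 0.576).

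The theta class acts on small halogenated compounds and lipid peroxides. Gstt2 had 44.6, 44.6, 39.7, 54.1 and 50.3 FPKM in BBBPH livers, 28.3, 24.0, 33.8, 20.6 and 25.6 FPKM in model livers and 44.4, 64.8, 37.4, 47.5 and 35.3 FPKM in control livers. All model libraries lay below the other 10. Gstt2 fell in model against control (log2 fold change -0.76 ± 0.15, adjusted p = 0.00141) and rose in BBBPH against model (log2 fold change 0.81 ± 0.15, adjusted p = 0.00132). Gstt1 and Gstt3, at means of 233 and 18.6 FPKM over all libraries, were called in none of the comparisons, and Gstt4 was listed at 0 in all 15 libraries.

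Gstk1 of the kappa class works in mitochondria and peroxisomes. It had 90.4, 98.4, 76.1, 95.1 and 125 FPKM in BBBPH livers, 162, 122, 177, 167 and 157 FPKM in model livers and 122, 123, 99.8, 99.7 and 77.2 FPKM in control livers. All model libraries but 1_4 lay above every other library, and model 1_4 lay within the range of the rest. Gstk1 rose in model against control (log2 fold change 0.60 ± 0.14, adjusted p = 0.00462) and fell in BBBPH against model (log2 fold change -0.70 ± 0.14, adjusted p = 0.00233).

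The mu class is a cluster on chromosome 3. Gstm1, the most abundant of it, averaged 978 ± 252 FPKM in BBBPH livers, 912 ± 215 FPKM in model livers and 779.9 ± 104 FPKM in control livers (SD, n = 5 each) and was called in none of the comparisons. Gstm4 had 6.33, 10.3, 8.70, 13.2 and 13.4 FPKM in BBBPH livers, 18.3, 18.2, 22.0, 17.2 and 13.8 FPKM in model livers and 8.92, 7.27, 7.26, 7.89 and 5.36 FPKM in control livers. Model libraries lay above all others, by little in the case of BBBPH. It rose in model against control (log2 fold change 1.18 ± 0.17, adjusted p = 0.000136) and fell in BBBPH against model (log2 fold change -0.76 ± 0.17, adjusted p = 0.00454). BBBPH against control gave 0.42 ± 0.17 (adjusted p = 0.0808), which passed with library weights or without BBBPH 2_1 (adjusted p = 0.0125 to 0.0376).

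Gstm5 had 12.5, 16.3, 9.68, 11.6 and 12.8 FPKM in BBBPH livers, 6.60, 10.2, 9.13, 8.18 and 8.74 FPKM in model livers and 9.06, 7.15, 8.28, 7.34 and 5.80 FPKM in control livers. BBBPH libraries were high, all above the control libraries and all but BBBPH 3_1 above the model libraries. Gstm5 rose in BBBPH against model (log2 fold change 0.50 ± 0.13, adjusted p = 0.0113) and was higher in BBBPH than in control livers (log2 fold change 0.66 ± 0.13, adjusted p = 0.00274), while model against control gave 0.17 ± 0.13 (adjusted p = 0.330). Gstm2 had 34.2, 43.8, 14.4, 31.6 and 21.6 FPKM in BBBPH livers, 50.7, 49.9, 73.9, 53.5 and 45.5 FPKM in model livers and 64.3, 51.1, 38.9, 49.8 and 26.3 FPKM in control livers. Each BBBPH library lay below each model library, while control libraries were spread over both. Gstm2 fell in BBBPH against model (log2 fold change -0.96 ± 0.26, adjusted p = 0.0143), and BBBPH against control gave -0.68 ± 0.26 (adjusted p = 0.0659). The last passed the threshold with median-ratio scaling, with quantile scaling, with library weights, without the 3 libraries that stand apart or without control 3_4 or BBBPH 2_2 (adjusted p = 0.0252 to 0.0499). Gstm3, Gstm6 and Gstm7 were called in none of the comparisons, at overall means of 17.1, 37.1 and 24.7 FPKM. Gstm6 passed in model against control without control 3_4 (adjusted p = 0.0223), lower in model livers.

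The alpha class includes Gsta3, which detoxifies aflatoxin epoxide in mouse, and Gsta4, which acts on 4-hydroxynonenal from oxidised lipid. Gsta3 was the most abundant alpha gene, with 1333, 1352, 1079.5, 1044 and 1116 FPKM in BBBPH livers, 1286, 426, 1171, 936 and 1165 FPKM in model livers and 1179, 1384, 952, 1241 and 765 FPKM in control livers. Model 1_4 was the lowest library of all and the groups overlapped, and neither Gsta3 nor Gsta4 was called in any comparison. Gsta4 averaged 65.3 FPKM in BBBPH livers, 49.1 FPKM in model livers and 61.1 FPKM in control livers. 

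Gsta2 had 6.13, 4.38, 4.95, 6.92 and 4.09 FPKM in BBBPH livers, 20.7, 4.59, 24.2, 10.7 and 18.05 FPKM in model livers and 11.3, 13.9, 9.33, 16.0 and 12.7 FPKM in control livers. BBBPH libraries were low, all of them below the control libraries, and among model libraries only 1_4 was as low. Gsta2 fell in BBBPH against model (log2 fold change -1.24 ± 0.31, adjusted p = 0.00838) and was lower in BBBPH than in control livers (log2 fold change -1.12 ± 0.31, adjusted p = 0.0163). Its change in model against control was 0.12 ± 0.31 (adjusted p = 0.773). Gsta1 stood near the limit of the test, with 1.58, 2.103, 0.159, 0.612 and 0.0586 FPKM in BBBPH livers, 5.13, 1.76, 4.26, 2.99 and 1.28 FPKM in model livers and 0.579, 0.696, 0.610, 0.0940 and 0.263 FPKM in control livers. Every model library was above every control library, and BBBPH libraries ranged across both. It rose in model against control (log2 fold change 1.42 ± 0.31, adjusted p = 0.00241) and fell in BBBPH against model (log2 fold change -1.14 ± 0.31, adjusted p = 0.0136). These sizes depend on the pseudocount: with 0.1 in place of 1 they were 2.54 and -2.14, and with voom on fragment counts 2.85 and -2.51. Gsta1 shares 80.6% of its exon windows with other genes, mainly the predicted gene Gm3776, and Gsta2 28.4%, so both values are uncertain.

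Gstz1, the maleylacetoacetate isomerase of tyrosine breakdown, averaged 215 FPKM in BBBPH livers, 238 FPKM in model livers and 218 FPKM in control livers, and was not called. Gsto1 of the omega class had 93.0, 88.8, 87.0, 82.7 and 92.3 FPKM in BBBPH livers, 77.4, 48.2, 75.9, 77.1 and 80.8 FPKM in model livers and 74.6, 89.7, 73.3, 77.8 and 73.7 FPKM in control livers. All BBBPH libraries lay above all model libraries, yet Gsto1 was not called in BBBPH against model (0.32 ± 0.12, adjusted p = 0.0504). It passed there with a filter at 5 FPKM, with quantile scaling, with library weights, by voom on fragment counts or without control 1_5 or model 3_4 (adjusted p = 0.0208 to 0.0492), and in BBBPH against control (0.19 ± 0.12, adjusted p = 0.227) without model 1_4 (adjusted p = 0.0348). 

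The GST genes together summed to 4424 ± 527 FPKM in BBBPH livers, 3403 ± 726 FPKM in model livers and 4222 ± 442 FPKM in control livers (SD, n = 5), and model 1_4 was lowest at 2164 FPKM. Gstp1 alone made up 29.9% ± 7.09 of the GST sum in BBBPH livers, 14.7% ± 3.32 in model livers and 33.7% ± 6.995 in control livers. The share ran from 22.0% to 39.7% in BBBPH livers, from 10.4% to 18.9% in model livers and from 25.0% to 41.7% in control livers, so model livers did not overlap with the others. The alpha class summed to 1256 ± 153 FPKM in BBBPH livers, 1065 ± 365 FPKM in model livers and 1179 ± 256 FPKM in control livers, and the mu class to 1104 ± 280.4 FPKM in BBBPH livers, 1064 ± 239 FPKM in model livers and 933 ± 144 FPKM in control livers, with overlap between all groups. By the same measure the UGT genes came to 1586 ± 204 FPKM in BBBPH livers, 1635 ± 177 FPKM in model livers and 1813 ± 62.6 FPKM in control livers, and the SULT genes to 593 ± 65.4 FPKM in BBBPH livers, 507 ± 99.6 FPKM in model livers and 602 ± 109.7 FPKM in control livers.

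**Figure D3:**
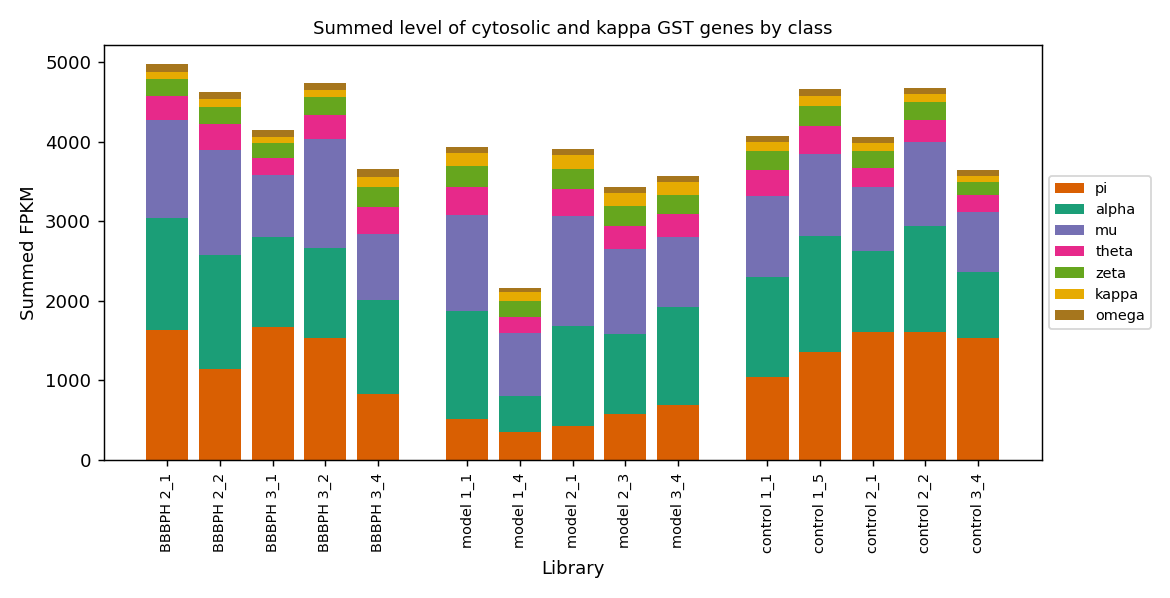
Summed FPKM of the GST genes in each library, stacked by class (bars from 0, libraries in the order BBBPH, model, control). The pi class is 347 to 692 FPKM in model libraries, below the 835 to 1671 FPKM of BBBPH libraries and the 1041 to 1611 FPKM of control libraries.

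Of the sulfotransferases 7 of 15 were tested. Sult2a8, a bile acid sulfotransferase of mouse liver, and Sult1a1, the main phenol enzyme, were the most abundant in control livers. Sult2a8 had 293, 399.9, 457, 419 and 492 FPKM in BBBPH livers, 389, 231, 375, 378 and 419 FPKM in model livers and 408, 557, 401, 447 and 346 FPKM in control livers, with model 1_4 far below the other model libraries and the groups overlapping. It was called in none of the comparisons (model against control -0.28 ± 0.17, adjusted p = 0.208), but passed in model against control with median-ratio scaling (adjusted p = 0.0483). Sult1a1 had 89.2, 86.2, 54.0, 77.4 and 88.8 FPKM in BBBPH livers, 67.0, 39.5, 73.7, 50.9 and 80.7 FPKM in model livers and 109, 102, 69.0, 86.3 and 51.1 FPKM in control livers, again with overlap, and was not called (model against control -0.41 ± 0.22, adjusted p = 0.153). It passed there without control 3_4 (adjusted p = 0.0431).

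Sult2a7 had 0.902, 1.08, 0.770, 0.598 and 2.45 FPKM in BBBPH livers, 3.30, 10.7, 5.01, 4.75 and 2.13 FPKM in model livers and 1.96, 1.98, 0.677, 1.84 and 0.359 FPKM in control livers. Each model library lay above each control library, model 1_4 the furthest, and BBBPH 3_4 lay above the lowest model library. Sult2a7 rose in model against control (log2 fold change 1.31 ± 0.32, adjusted p = 0.00481) and fell in BBBPH against model (log2 fold change -1.43 ± 0.32, adjusted p = 0.00407), with -0.11 ± 0.32 in BBBPH against control (adjusted p = 0.815). Sult5a1 had 1.97, 1.65, 1.81, 1.25 and 2.93 FPKM in BBBPH livers, 6.60, 2.81, 1.94, 6.13 and 6.26 FPKM in model livers and 2.93, 4.36, 2.57, 3.52 and 1.33 FPKM in control livers. Model 1_1, 2_3 and 3_4 were high, and model 1_4 and 2_1 lay among those of the other groups. It fell in BBBPH against model (log2 fold change -0.90 ± 0.27, adjusted p = 0.0228), which no longer passed without BBBPH 3_2, model 1_1, model 2_3 or model 3_4 (adjusted p = 0.0564 to 0.0617). Model against control gave 0.49 ± 0.27 (adjusted p = 0.159), which passed without model 2_1 (adjusted p = 0.0361).

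Sult1c2 had 2.66, 11.3, 8.07, 15.4 and 11.4 FPKM in BBBPH livers, 8.53, 4.74, 8.07, 6.66 and 6.17 FPKM in model livers and 2.21, 4.33, 3.999, 4.05 and 3.84 FPKM in control livers. All model libraries were above all control libraries, while BBBPH 2_1 was as low as the controls and the other BBBPH libraries higher. Sult1c2 was higher in BBBPH than in control livers (log2 fold change 1.06 ± 0.30, adjusted p = 0.0179), except without the 3 libraries that stand apart or without BBBPH 3_2 (adjusted p = 0.0517 to 0.0556). Model against control gave 0.74 ± 0.30 (adjusted p = 0.0642), which passed with library weights, in a fit of the compared groups only or without BBBPH 2_1 or BBBPH 3_2 (adjusted p = 0.00438 to 0.0483). BBBPH against model gave 0.32 ± 0.30 (adjusted p = 0.463), which passed without BBBPH 2_1 (adjusted p = 0.0164). Sult1b1 and Sult1d1, a catecholamine enzyme in mouse, averaged 13.4 and 65.4 FPKM over all libraries and were not called. Sult1d1 passed in BBBPH against model with library weights or without BBBPH 3_1 (adjusted p = 0.0167 to 0.0389), higher in BBBPH livers.

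The 15 members under a mean of 1 FPKM were Gsto2, Gstt4, Sult1e1, Sult2a1, Sult2a2, Sult2a5, Sult2b1, Sult3a1, Sult4a1, Sult6b1, Ugt1a10, Ugt1a2, Ugt1a7c, Ugt1a8 and Ugt2b37, and none was tested. Ugt2b37 was the highest of them, with 0.417, 0.417, 0.641, 0.547 and 0.0672 FPKM in BBBPH livers, 0.668, 2.84, 0.434, 1.81 and 0.264 FPKM in model livers and 1.40, 1.39, 1.13, 0.646 and 1.62 FPKM in control livers. Model libraries spanned those of the other groups, and the highest BBBPH library was just below the lowest control library. Sult1e1, the oestrogen sulfotransferase, had 0.457, 0.215, 0.196, 0.0837 and 0.280 FPKM in BBBPH livers, 0.519, 0.517, 0.474, 0.152 and 0.787 FPKM in model livers and 0.110, 0.0865, 0.0877, 0.0642 and 0.0673 FPKM in control livers. It stayed under 1 FPKM in every library, the model libraries all above the control libraries and the BBBPH libraries overlapping with both. Sult3a1, known as a gene of female mouse liver, was listed at 0 to 0.0229 FPKM in BBBPH livers, 0.0230 to 0.465 FPKM in model livers and at 0 in all control libraries.

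**Figure D4:**
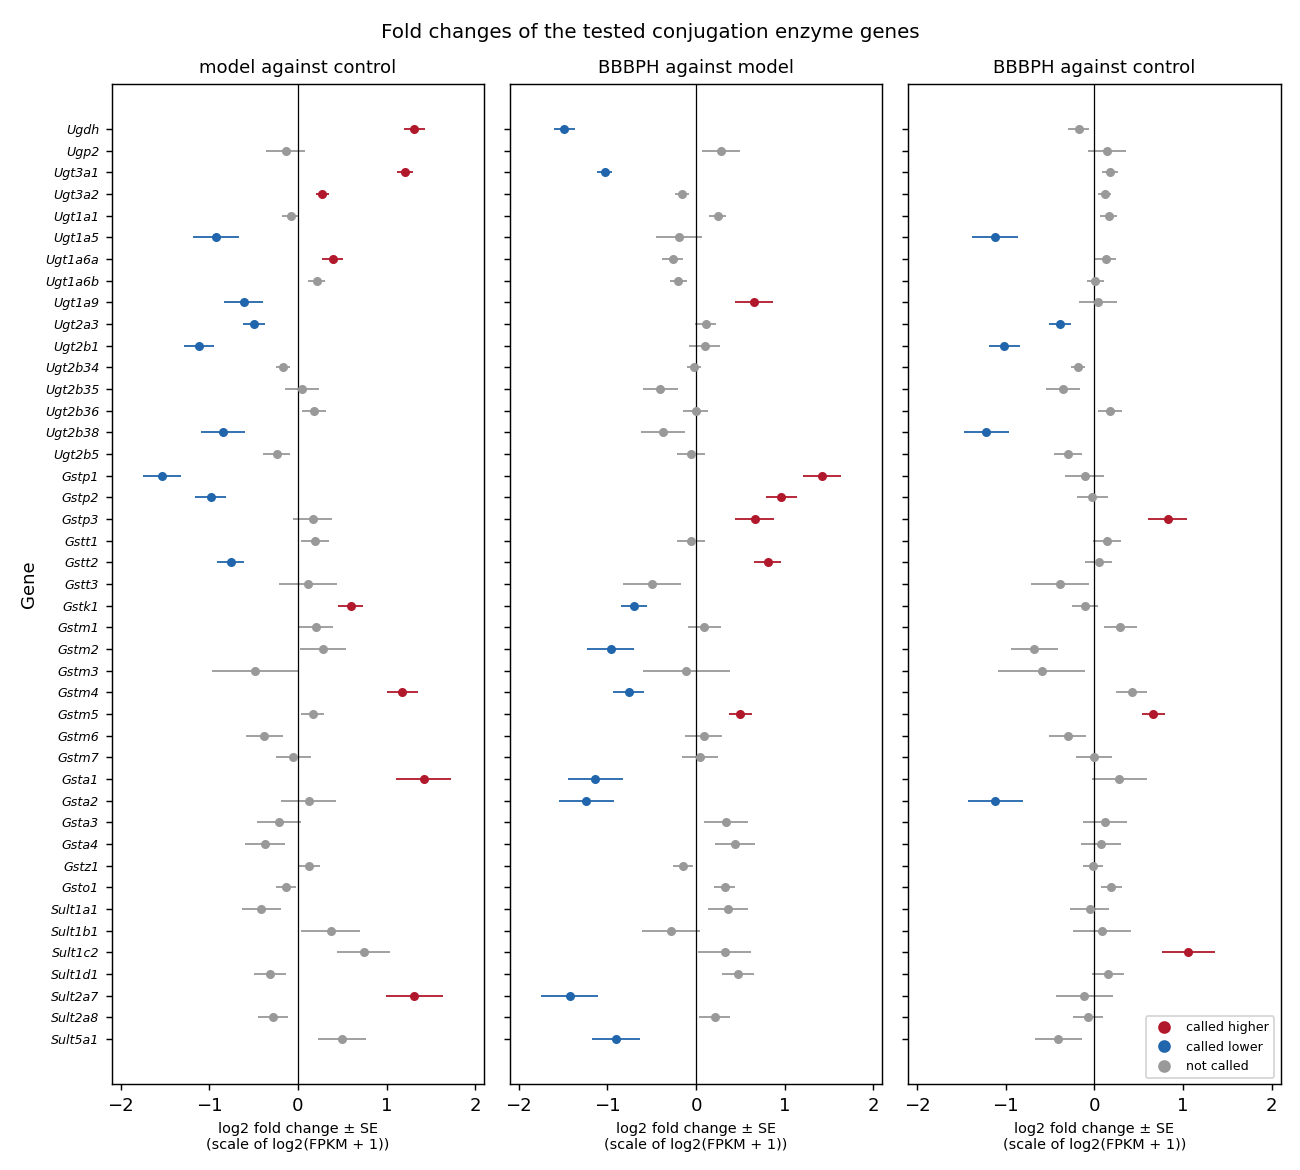
Log2 fold change of each tested member on the scale of log2(FPKM + 1) (points, with the standard error as whiskers) in 3 panels, model against control, BBBPH against model and BBBPH against control, with members called higher in red, called lower in blue and not called in grey. In model against control Gsta1, Ugdh, Sult2a7 and Ugt3a1 lie furthest above 0 and Gstp1 and Ugt2b1 furthest below, and in BBBPH against model Gstp1 lies furthest above and Ugdh and Sult2a7 furthest below.

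By family, 4 of 16 UGT genes (Ugdh and Ugp2 included) rose and 5 fell in model against control, 1 rose and 2 fell in BBBPH against model, and 4 fell in BBBPH against control. Of 20 GST genes 3 rose and 3 fell in model against control, 5 rose and 5 fell in BBBPH against model, and 2 rose and 1 fell in BBBPH against control. Of 7 SULT genes 1 rose in model against control, 2 fell in BBBPH against model and 1 rose in BBBPH against control. Of all genes 38.6%, 26.5% and 28.1% were called in these comparisons, in the same order. The families are small, and no family was tested against all genes. In BBBPH against control the members called were Ugt2b38, Ugt2b1, Gsta2, Ugt1a5 and Ugt2a3 on the lower side and Sult1c2, Gstp3 and Gstm5 on the higher side.

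Lists of genes around the members, written from general knowledge with earlier results of these data known, are given as counts and medians. They are to be read beside all tested genes, of which 29.9% rose and 8.64% fell in model against control (median 0.12), 14.2% rose and 12.2% fell in BBBPH against model (median 0.02), and 24.4% rose and 3.7% fell in BBBPH against control (median 0.13). For UDP-glucuronic acid supply, 3 of 7 genes rose and 1 fell in model against control (median 0.06), and 2 of 7 fell in BBBPH against model (median -0.14). In BBBPH against control (median -0.02) limma called 0 of them, 1 had an unadjusted p under 0.05 and voom called 0. Slc35b1, a nucleotide transporter of the endoplasmic reticulum, gave 0.82 ± 0.12 (adjusted p = 0.000105) in model against control and -0.82 ± 0.12 (adjusted p = 0.000159) in BBBPH against model.

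For glutathione supply, 5 of 10 tested genes rose in model against control (median 0.42), 6 of 10 fell in BBBPH against model (median -0.57), and 1 rose and 1 fell in BBBPH against control (median 0.04). Gclc, the catalytic subunit of the rate-limiting enzyme, averaged 83.4 FPKM in BBBPH livers, 148 FPKM in model livers and 82.2 FPKM in control livers. It rose in model against control (log2 fold change 0.88 ± 0.18, adjusted p = 0.00142) and fell in BBBPH against model (log2 fold change -0.84 ± 0.18, adjusted p = 0.00278). Gsr, which reduces oxidised glutathione, gave 0.55 ± 0.07 (adjusted p = 4.87e-05) and -0.50 ± 0.07 (adjusted p = 0.000154). Cth, the last step from homocysteine to cysteine, was lower in BBBPH livers against model (log2 fold change -1.03 ± 0.17, adjusted p = 0.000431) and against control (log2 fold change -1.14 ± 0.17, adjusted p = 0.000469). The microsomal transferase Mgst1 gave 0.34 ± 0.09 (adjusted p = 0.00998) in model against control and -0.51 ± 0.09 (adjusted p = 0.00102) in BBBPH against model. Among all 6 tested transferases outside the rule 2 rose in model against control, 1 fell in BBBPH against model and 2 rose in BBBPH against control (medians 0.15, 0.08 and 0.15).

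For PAPS supply and use, 4 of 9 genes rose and 2 fell in model against control (median 0.12), 3 rose and 2 fell in BBBPH against model (median 0.29), and 2 rose in BBBPH against control (median 0.17). The PAPS synthase Papss1 gave 0.66 ± 0.10 (adjusted p = 0.000173) in model against control and -0.45 ± 0.10 (adjusted p = 0.00399) in BBBPH against model. Bpnt1, which breaks down the PAP left by sulfation, gave 0.44 ± 0.07 (adjusted p = 0.000239) and -0.35 ± 0.07 (adjusted p = 0.00187) in the same comparisons.

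Conjugation by other enzymes was mixed: of 14 tested genes 4 rose and 3 fell in model against control, 4 rose and 4 fell in BBBPH against model, and 2 rose and 3 fell in BBBPH against control (medians -0.01, 0.00 and -0.09). Inmt, an N-methyltransferase, fell in model against control (log2 fold change -1.54 ± 0.23, adjusted p = 0.000158) and rose in BBBPH against model (log2 fold change 0.92 ± 0.23, adjusted p = 0.00789). Among 6 genes listed under deconjugation 3 rose in model against control. In BBBPH against model 3 rose and 1 fell, and 1 rose in BBBPH against control (medians 0.15, 0.11 and 0.20 in this order). The list also holds the microsomal epoxide hydrolase Ephx1, which does not remove conjugates. Ephx1 gave 0.70 ± 0.17 (adjusted p = 0.00489) in model against control and -0.86 ± 0.17 (adjusted p = 0.00178) in BBBPH against model.

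Of 9 tested transporters of conjugates 1 rose and 2 fell in model against control, 2 rose and 3 fell in BBBPH against model, and 1 rose and 1 fell in BBBPH against control (medians 0.06, -0.06 and 0.00). Abcc3, which exports glucuronides to the blood, had 40.8, 39.3, 35.4, 48.7 and 38.2 FPKM in BBBPH livers, 89.6, 58.1, 79.3, 71.1 and 62.3 FPKM in model livers and 28.7, 27.3, 24.2, 24.4 and 24.3 FPKM in control livers. Model libraries were above all others. Abcc3 rose in model against control (log2 fold change 1.44 ± 0.11, adjusted p = 1.12e-06), fell in BBBPH against model (log2 fold change -0.81 ± 0.11, adjusted p = 0.000127) and was higher in BBBPH than in control livers (log2 fold change 0.63 ± 0.11, adjusted p = 0.00139).

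Of 16 tested regulators 7 rose and 1 fell in model against control, 4 rose and 3 fell in BBBPH against model, and 8 rose and 1 fell in BBBPH against control (medians 0.19, 0.00 and 0.23, beside 0.12, 0.02 and 0.13 over all genes). Ahr gave 1.23 ± 0.24 (adjusted p = 0.00118) in model against control and -1.11 ± 0.24 (adjusted p = 0.00333) in BBBPH against model, and the bile acid receptor FXR (Nr1h4) gave 0.61 ± 0.11 (adjusted p = 0.000890) in BBBPH against model. Of 8 tested reporter genes of AhR, CAR, PXR and NRF2, 3 rose and 2 fell in model against control and 2 rose and 4 fell in BBBPH against model (medians 0.16 and -0.19), while in BBBPH against control limma called 0, 2 had an unadjusted p under 0.05 and voom called 0. Among them the NRF2 targets Srxn1 and Nqo1 rose in model against control (1.48 ± 0.16, adjusted p = 1.32e-05, and 0.93 ± 0.18, adjusted p = 0.00106) and fell in BBBPH against model (-1.13 ± 0.16, adjusted p = 0.000162, and -0.58 ± 0.18, adjusted p = 0.0269). The AhR target Cyp1a2 gave -0.66 ± 0.14 (adjusted p = 0.00227) and 0.59 ± 0.14 (adjusted p = 0.00666).

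Genes known to be higher in male mouse liver were listed because Gstp1 is one such gene: of 11 tested, 9 fell in model against control (median -1.004) and 5 rose and 1 fell in BBBPH against model (median 0.69), while in BBBPH against control (median -0.49) limma called 0, 2 had an unadjusted p under 0.05 and voom called 0. Of the 13 genes listed as higher in female liver 4 were tested, and 2 rose in model against control, 2 rose and 1 fell in BBBPH against model and 1 rose in BBBPH against control (medians 1.30, -0.10 and 0.86). Slco1a1 stands in the male list and in that of transporters. The sex of the mice is not stated, and whether these lists and the changes of the members belong together was not tested.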

How the data were processed

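Per the labels' protocols, the RNA was extracted from liver with TRIzol and the 15 libraries were made with the VAHTS Universal V6 kit. Per the submitters' processing notes fastp, HISAT2, HTSeq and DESeq2 were used with the build mm10; versions, annotation, strand and counting of shared fragments are not given in the sources used here. The values are the FPKM that the authors deposited, in 1 series table equal to 15 single files (largest difference 0), with no pooling. FPKM made from whole counts are whole multiples of what 1 fragment is worth, from which depth, gene lengths and fragments were recovered for 15184 of 17527 genes, 53 members among them. In these genes 100% of non-zero values came within 0.02 of whole numbers. Genes were kept by that same limit, so the 100% is no separate check of the recovery. No library was a copy of another of its group: chi-square per gene was 30.6 to 358 over the 30 pairs within groups, where sampling noise gives about 1. Pairs across groups were not compared.

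Libraries were grouped by their treatment labels. A mean of 1 FPKM or more kept 9575 genes for limma 3.58.1 (R 4.3.3) on log2(FPKM + 1), with 3 group means, 12 residual degrees of freedom, eBayes with trend=TRUE, 2-sided p-values and Benjamini-Hochberg adjustment within each comparison. The procedure was tested on simulated data. Positions came from GENCODE M21 (58 members matched), promoters from RefSeq on GRCm38.p6 (50 members matched), and shared sequence is the share of 100-base exon windows also found in exons of another gene. Python 3.11.15 with numpy 2.4.6, pandas 2.3.3 and matplotlib 3.10.9 was used for the rest.

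The members and lists were chosen with earlier results of these data known. Members given in every library were Ugt3a1, Ugdh and Gstp1, the 3 called members with the smallest adjusted p per comparison, family and direction, and the 2 of each family with the highest mean in control livers (25 in all). Several others were given this way after their values were seen, and Ahr, Gclc, Cyp1a2, Saa2, Ctrb1 and Tnnt3 were also named after that. Alternatives were the pseudocount, the filter, TPM, median-ratio and quantile scaling, eBayes options, library weights, voom on fragment counts, a fit of the compared groups only, the replicate number as a block, and libraries left out. The values of 1 gene in a supporting list are not reported here.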

Additional observations from a re-analysis of the deposited data

Results flagged for a closer look

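Among 75 groups of 5 libraries, for the 25 members given in every library, 5 held a library far from the other 4 by the test of Dixon at its 95% critical value of 0.71, and chance gives about 1 in 20 such groups (5%). Model 1_4 was such a library for 3 genes. Sult2a8 was 231 FPKM there, against 375 to 419 FPKM in the other model livers. Ugt2b36 was 259 FPKM, against 375 to 413 FPKM. Ugt2b5 was 313 FPKM, against 386 to 404 FPKM. The same library had the highest Saa2 and the lowest hepatocyte markers, and whether these belong together was not tested. BBBPH 3_4 had 2.45 FPKM of Sult2a7, where the other BBBPH livers had 0.598 to 1.08 FPKM. Control 1_1 had 2.21 FPKM of Sult1c2, where the other control livers had 3.84 to 4.33 FPKM.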

How the results depend on the processing

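Counts of members called stayed within 1.5 times the reported ones under all 27 alternatives except for 7 values. With the replicate number as a block, 4 members (reported 8) were lower in model against control, 0 higher (6) and 3 lower (9) in BBBPH against model, and 0 higher (3) and 3 lower (5) in BBBPH against control, all by limma. The share of members called in either direction was then 30.2% in model against control, beside 13.7% of all genes. It was 6.98% beside 3.19% in BBBPH against model, and 6.98% beside 1.93% in BBBPH against control. At an unadjusted p under 0.05 the block gave 5 higher and 12 lower in BBBPH against model and 8 higher in BBBPH against control, and voom without it called 7 higher, 9 lower and 3 higher in these. Without the 3 libraries that stand apart, 1 member was higher in BBBPH against control, and with median-ratio scaling 8 were lower there. What the numbers mean is not stated. Residuals of the 8 same-number pairs correlated between -0.329 and 0.0239, and 0 of 10 libraries correlated best with their own number. These values cannot exclude a pairing or batch. The block leaves 4 residual degrees of freedom. In BBBPH against model it ended the limma calls of Gsta1, Gstk1, Gstm2, Gstm4, Gstm5, Gstp1, Gstp2, Gstp3, Gstt2, Sult2a7, Sult5a1 and Ugt1a9 (adjusted p = 0.0797 to 0.883). In model against control those of Gstp2, Gstt2, Sult2a7, Ugt1a6a, Ugt1a9 and Ugt2a3 ended (adjusted p = 0.0610 to 0.365). Gsta2, Gstt1 and Ugt2b36 passed there only with the block, all higher (0.78, 0.42 and 0.40, adjusted p = 0.0426 to 0.0487). In BBBPH against control those of Gstm5, Gstp3, Sult1c2, Ugt1a5 and Ugt2a3 ended (adjusted p = 0.0651 to 0.253). Of 2013 log2 fold changes of the 25 members under the alternatives, 992 belonged to called results, of which 930 stayed called in the same direction and 62 did not pass, 21 of them with the block. A further 19 passed only under an alternative, and 58 that were called neither way changed sign, at sizes up to 0.30. Over all genes, voom on fragment counts (9571 genes) called 2841 higher and 826 lower in model against control and 1385 higher and 1186 lower in BBBPH against model. Except where given beside the result, no leave-out of 1 library ended a call. The filter on a mean of 1 FPKM, not depth, left out the 15 untested members. Depth limits Gsta1, whose lowest libraries held 2 fragments (BBBPH) and 3 fragments (control). The cause of these changes was not tested, and shared sequence leaves the Ugt1, Gsta1, Gsta2, Gstp1, Gstp2, Ugt2b5 and Ugt2b38 values uncertain.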
